A study of Mus musculus with 12 samples.

Results

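The 6 genes Foxc1, Foxc2, Gata2, Gata6, Nfatc1 and Foxo1 encode transcription factors tied to the valves and collecting vessels of the lymphatic system, and their levels were followed across endothelial cells of mouse ear skin. Each was found by its symbol in the platform annotation, where 1 row of the array named it: TC1300000353.mm.1 for Foxc1, TC0800001457.mm.1 for Foxc2, TC0600001029.mm.1 for Gata2, TC1800000091.mm.1 for Gata6, TC1800001665.mm.1 for Nfatc1 and TC0300000376.mm.1 for Foxo1. All 6 had a row among 30743 genes with a row, and all 6 were among the 19675 genes tested. The mice were of the C57BL6 strain, 5 weeks old, and all carried the reporter Tg(Prox1-EGFP)KY221Gsat, in which Prox1 regulatory sequence drives green fluorescence in lymphatic endothelial cells (LEC). PECAM1-positive cells were enriched on beads and sorted into LYVE1-high capillary cells (cap LEC), LYVE1-intermediate pre-collecting cells (pre-col LEC), LYVE1-low or negative collecting cells (col LEC) and blood endothelial cells (BEC) without podoplanin, reporter or LYVE1. Each of the 4 groups had 3 arrays, 12 in all. The labels call them biological replicates without saying whether each was a separate mouse or a pool, so p-values measure only the spread between these samples, which may be technical. The LEC groups differ by a gate on LYVE1 and not by where a vessel lay, and no gate selected valve cells.

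Lymphatic collecting vessels carry valves that keep lymph moving one way, and capillaries lack them. In embryonic development FOXC2, working with the calcineurin-regulated factor NFATC1 and with PROX1, is known to drive the maturation of collecting vessels and the formation of valve leaflets. FOXC1 is its closest relative, GATA2 is known to be needed for valve formation, and FOXO1 is held out of the nucleus by AKT and has been described as a brake on valve growth. GATA6 is a zinc finger factor best known from the heart, gut and smooth muscle.

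The 12 arrays were alike in scale, and the marker genes followed the labels. Array medians lay between 6.06 and 6.17 on the log2 scale of the RMA values (a background-corrected, normalized summary of the probes of a gene), and pairwise correlations over tested genes were 0.971 to 0.988 for arrays of 1 group and 0.904 to 0.923 across LEC and BEC. The mean level of 8 lymphatic sort and identity genes was 11.52 to 12.27 on LEC arrays and 7.85 to 8.67 on BEC arrays. That of 9 blood endothelial genes was 7.72 to 8.37 on LEC and 10.84 to 10.98 on BEC arrays, and of 13 mural genes (smooth muscle and pericytes) 7.07 to 8.33 and 9.29 to 9.52. Pre-col LEC replicate 1 stood apart with the highest LEC values of the mural (8.33) and fibroblast (8.22) lists, against 7.31 to 7.56 and 7.07 to 7.15 on the other pre-col arrays, and BEC replicate 1 with the highest BEC value of the lymphatic list (8.67). Between col and cap LEC none of the 13 mural and 9 tested fibroblast genes passed limma's test, where 1.64% of all genes did. An unadjusted p under 0.05 was reached by 0 and 1 of them, and by 10.5% of all genes. The mural list stood at 7.18 to 7.23 on col arrays and 7.07 to 7.54 on cap arrays. The fibroblast list was at 7.59, 6.81 and 6.90 on the col arrays and at 6.86 to 7.15 on the cap arrays, so col LEC replicate 1 stood apart, with the matrix gene Dcn at 9.54 against 6.05 and 6.65 on the other col arrays.

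**Figure D1:**
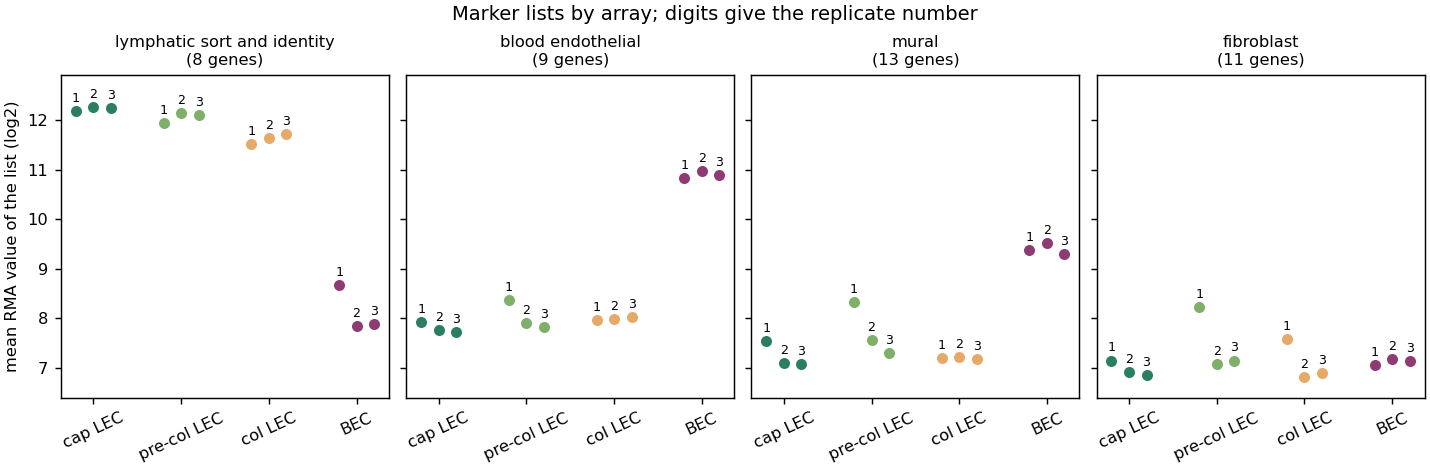
Mean RMA value (log2) of 4 marker lists on each of the 12 arrays, with 1 point per array and its replicate number above it. Mural markers lie highest on the 3 BEC arrays (9.29 to 9.52), and pre-col LEC replicate 1 is the LEC array with the highest mural and fibroblast values (8.33 and 8.22).

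Gata6 followed the order of the LYVE1 gates. Its log2 values were 7.12, 7.25 and 6.91 on the 3 cap LEC arrays, 7.49, 7.58 and 7.72 on the pre-col arrays, 8.42, 8.37 and 8.45 on the col arrays and 7.57, 7.26 and 7.67 on the BEC arrays. Every col array lay above every array of the other groups, and every cap array lay below every pre-col and BEC array. Group means (SD, n = 3) were 7.09 ± 0.17 for cap, 7.60 ± 0.12 for pre-col and 8.41 ± 0.04 for col LEC, and 7.50 ± 0.22 for BEC.

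Col LEC exceeded cap LEC in Gata6 by a log2 difference of 1.32 ± 0.12 (SE), with a 95% interval of 1.06 to 1.58 and an adjusted p of 0.00013 by limma. Without col LEC replicate 1 the difference was 1.32 (adjusted p = 0.00102). By p-value it ranked 22nd of 19675 genes in this comparison. On all 12 arrays Gata6 lay above the array median but below the 95th percentile of the platform's 5222 negative control rows (8.92 to 9.34), so its signal was weak and no fold is given. The difference from pre-col LEC was 0.82 ± 0.12 (limma adjusted p = 0.0132). That call was lost without col LEC replicate 1, 2 or 3 (adjusted p = 0.0661, 0.0515 and 0.056) and without pre-col LEC replicate 1 or 2 (0.0553 and 0.063), while the log2 difference stayed between 0.76 and 0.88 over the 12 fits that left out 1 array. The step from cap to pre-col LEC was 0.50 ± 0.12 and did not pass (adjusted p = 0.416), although the arrays did not overlap. In pre-col LEC Gata6 was at 7.49 on replicate 1, the array rich in mural and fibroblast markers, and at 7.58 and 7.72 on the others. The part of mural or fibroblast RNA in these values was not tested.

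Against BEC, Gata6 was higher in col LEC by 0.91 ± 0.12 (limma adjusted p = 0.000144) and lower in cap LEC (-0.41 ± 0.12, adjusted p = 0.0293), with no call for pre-col LEC (0.10 ± 0.12, interval -0.16 to 0.35, adjusted p = 0.667). The mean of the 3 LEC groups differed from BEC by 0.20 ± 0.10 (adjusted p = 0.169), or 0.34 (adjusted p = 0.0348) with array weights. The cap LEC call was lost without cap LEC replicate 1 or 3 (adjusted p = 0.0594 and 0.122) and without BEC replicate 1 or 3 (0.0763 and 0.11). It was also lost with array weights (-0.23, adjusted p = 0.195) and with only these groups in the fit (0.0893). BEC arrays also carried the highest mural marker levels given above, and smooth muscle expresses Gata6; the part of mural RNA in the BEC value was not tested. RNA from many sorted cells does not tell fewer expressing cells from less RNA per cell.

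**Figure D2:**
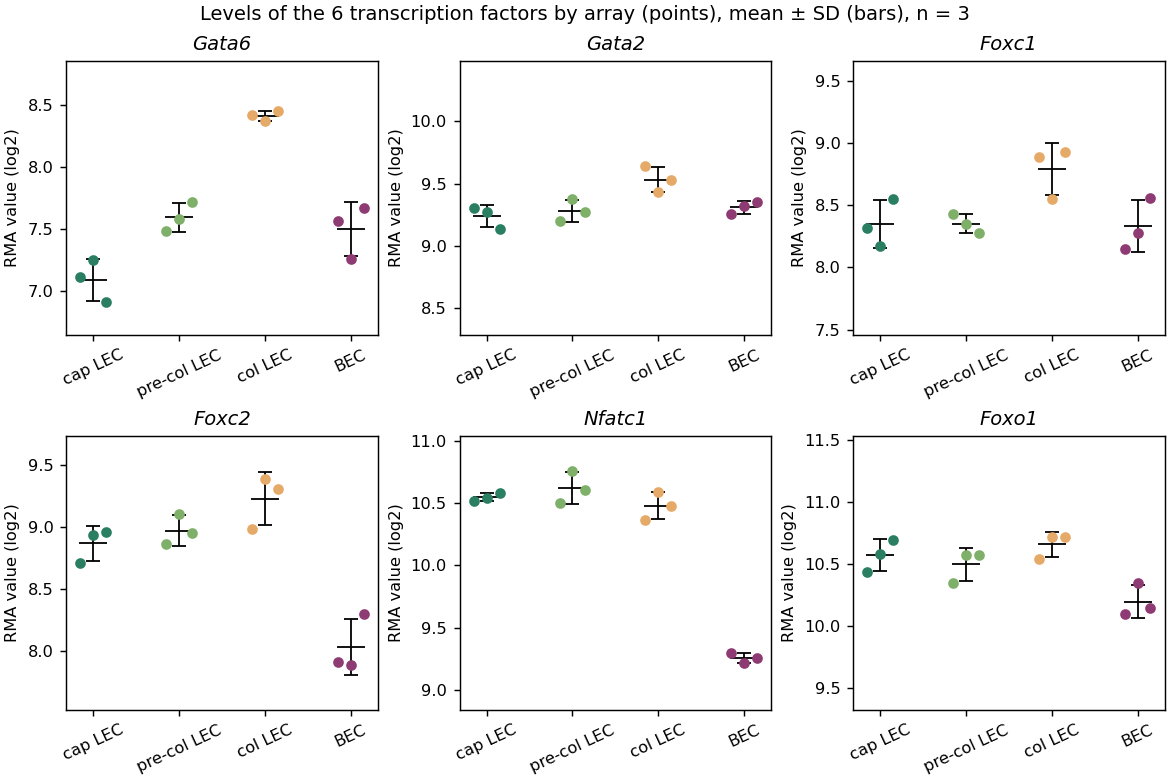
RMA values (log2) of the 6 genes in 3 LEC groups and BEC, with a point per array and bars for the mean ± SD (n = 3). The vertical axes start at different values but span the same range. Gata6 means are 7.09 in cap, 7.60 in pre-col and 8.41 in col LEC, while Nfatc1 and Foxc2 separate all LEC arrays from BEC.

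Gata2, the relative of Gata6 that is needed in lymphatic valves and in blood cell development, differed much less. Its values were 9.31, 9.27 and 9.14 on the cap arrays, 9.20, 9.37 and 9.28 on the pre-col arrays, 9.64, 9.43 and 9.53 on the col arrays and 9.25, 9.32 and 9.36 on the BEC arrays. All 3 col arrays lay above all other arrays, narrowly so over the highest pre-col array. The log2 difference between col and cap LEC was 0.29 ± 0.08 (interval 0.11 to 0.48), 1.23-fold, and did not pass limma's test over all genes (adjusted p = 0.135). It was called only when arrays were weighted by quality (0.26, adjusted p = 0.0498). Col LEC minus pre-col LEC was 0.25 ± 0.08 (adjusted p = 0.512) and col LEC minus BEC 0.22 ± 0.08 (adjusted p = 0.0992). Cap, pre-col and BEC means of 9.24, 9.28 and 9.31 lay within their spread of each other.

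The GATA pair was also compared within each array, which asks whether relatives change by unequal amounts. Gata6 minus Gata2 averaged -2.15 ± 0.11 on cap arrays and -1.12 ± 0.09 on col arrays (SD, n = 3). The shift of 1.02 had an exact two-sided permutation p of 0.1, the smallest that 3 against 3 arrays allow. Over the 9 LEC and 3 BEC arrays the same difference averaged -1.65 ± 0.45 and -1.81 ± 0.22, a shift of 0.16 (exact permutation p = 0.595). This permutation shuffled the 9 LEC arrays as a single set, so the steps between LEC groups count in its spread. Of the 4 permutation tests made, those of the GATA pair had Benjamini-Hochberg adjusted values of 0.2 and 0.793.

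Foxc1, which with Foxc2 shapes vessels, eye and skeleton in development, was highest in col LEC. Values were 8.32, 8.17 and 8.55 on the cap arrays, 8.43, 8.35 and 8.27 on the pre-col arrays, 8.88, 8.55 and 8.93 on the col arrays and 8.15, 8.28 and 8.56 on the BEC arrays. Col replicates 1 and 3 exceeded every other array, and col replicate 2 lay among the highest cap and BEC values. The means of cap LEC, pre-col LEC and BEC were nearly the same at 8.35, 8.35 and 8.33, with SDs of 0.19, 0.08 and 0.21, and that of col LEC was 8.79 ± 0.21.

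Col LEC minus cap LEC was 0.44 ± 0.14 for Foxc1 (interval 0.14 to 0.74, limma adjusted p = 0.188), and col LEC minus pre-col LEC was 0.44 ± 0.14 (adjusted p = 0.444). With array weights the first became 0.52 (adjusted p = 0.0277). Only col LEC minus BEC passed, at 0.46 ± 0.14 (adjusted p = 0.0395). That call was lost without col LEC replicate 1 or 3 (adjusted p = 0.123 and 0.151), BEC replicate 1 or 2 (0.122 and 0.0936), pre-col LEC replicate 2 or 3 (0.0544 and 0.0513) or cap LEC replicate 1 (0.0537). It also ended under cyclic loess (0.0807), without the filter on dim genes (0.0526) and with only these groups in the fit (0.0901). Like Gata6, Foxc1 lay on all 12 arrays below the 95th percentile of the negative controls.

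Foxc2 was higher in every LEC group than in BEC. Its values were 8.71, 8.94 and 8.96 on the cap arrays, 8.86, 9.11 and 8.95 on the pre-col arrays, 8.99, 9.39 and 9.30 on the col arrays and 7.92, 7.89 and 8.30 on the BEC arrays. All 9 LEC arrays lay above all BEC arrays. The mean over the LEC groups exceeded BEC by 0.99 ± 0.11 (interval 0.74 to 1.23, limma adjusted p = 3.32e-05). The difference was 0.83 ± 0.14 for cap LEC (adjusted p = 0.000848), 0.94 ± 0.14 for pre-col LEC (adjusted p = 0.000388) and 1.19 ± 0.14 for col LEC (adjusted p = 5.27e-05).

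Among LEC, the Foxc2 means of 8.87 ± 0.14 in cap, 8.97 ± 0.12 in pre-col and 9.23 ± 0.21 in col cells (SD, n = 3) followed the order of the gates, and no step passed. Col LEC minus cap LEC was 0.36 ± 0.14 (interval 0.06 to 0.66, limma adjusted p = 0.346), and the col and cap arrays were narrowly separated. Col LEC minus pre-col LEC was 0.26 ± 0.14 (adjusted p = 0.972) and pre-col LEC minus cap LEC 0.10 ± 0.14 (adjusted p = 0.89). Foxc2 exceeded the 95th percentile of the negative controls on 2 of 12 arrays and on none of BEC.

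The 2 FOXC genes parted between LEC and BEC. Within arrays, Foxc2 minus Foxc1 averaged 0.53 ± 0.24 on the 9 LEC arrays, with a range of 0.10 to 0.84, and -0.30 ± 0.08 on the 3 BEC arrays, with a range of -0.39 to -0.23. Since levels of different probes are not comparable, only the shift between groups is read. On BEC arrays both genes lay below the 95th percentile of the negative controls, and mural markers were at their highest. The part of mural RNA in the shift was not tested. The groups did not overlap, and the shift of 0.82 had an exact two-sided permutation p of 0.00455, the smallest that 9 against 3 arrays can give (Benjamini-Hochberg adjusted p = 0.0182 over 4 tests). Here too the 9 LEC arrays were shuffled as a single set although they come from different LEC groups. Between col and cap LEC the shift was -0.08 (0.44 ± 0.37 and 0.52 ± 0.21, exact permutation p = 0.8, adjusted 0.8), with overlapping arrays.

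**Figure D3:**
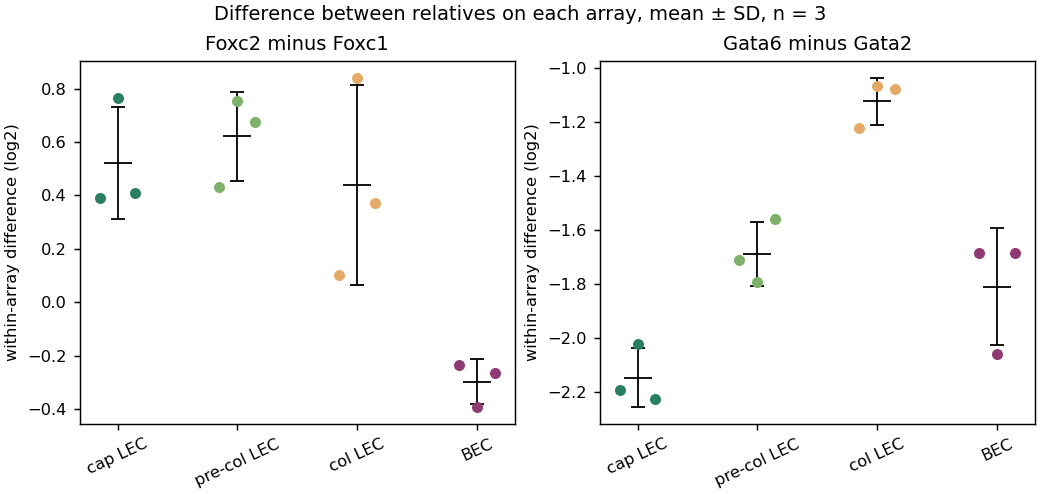
Within-array log2 difference between related genes, Foxc2 minus Foxc1 (left) and Gata6 minus Gata2 (right), with a point per array and the mean ± SD (n = 3). The FOXC difference is larger on all 9 LEC arrays (0.10 to 0.84) than on the 3 BEC arrays (-0.39 to -0.23), and the GATA difference runs from about -2.15 in cap to -1.12 in col LEC.

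Nfatc1, the calcineurin-activated factor that partners FOXC2, separated LEC from BEC most widely among the 6. Values were 10.52, 10.54 and 10.58 on the cap arrays, 10.51, 10.76 and 10.61 on the pre-col arrays, 10.37, 10.59 and 10.48 on the col arrays and 9.29, 9.22 and 9.26 on the BEC arrays. The LEC arrays lay at least 1 log2 unit above the BEC arrays. The LEC mean exceeded BEC by 1.29 ± 0.07 (interval 1.14 to 1.45), 2.45-fold, with a limma adjusted p of 3.72e-08.

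Within the LEC, Nfatc1 gave no call. Means were 10.55 ± 0.03 in cap, 10.62 ± 0.13 in pre-col and 10.48 ± 0.11 in col cells (SD, n = 3), and the arrays overlapped. Col LEC minus cap LEC was -0.07 ± 0.08, with an interval of -0.25 to 0.11 (limma adjusted p = 0.801). Col LEC minus pre-col LEC was -0.14 ± 0.08 (interval -0.33 to 0.04).

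Foxo1, the AKT-inhibited factor, showed a smaller LEC excess. Values were 10.44, 10.58 and 10.69 on the cap arrays, 10.34, 10.58 and 10.57 on the pre-col arrays, 10.54, 10.72 and 10.71 on the col arrays and 10.10, 10.35 and 10.14 on the BEC arrays. BEC replicate 2 reached the lowest pre-col array, and no other LEC array was matched by a BEC array. The LEC mean exceeded BEC by 0.38 ± 0.08, 1.3-fold (interval 0.19 to 0.56, limma adjusted p = 0.00612).

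By group, Foxo1 exceeded BEC by 0.46 ± 0.10 in col LEC (limma adjusted p = 0.00835), 0.37 ± 0.10 in cap LEC (adjusted p = 0.023) and 0.30 ± 0.10 in pre-col LEC (adjusted p = 0.077). The cap LEC call was lost without cap LEC replicate 2 or 3 (adjusted p = 0.0668 and 0.0951) and without BEC replicate 1 or 3 (0.0697 and 0.0713). Cyclic loess lowered this difference to 0.20 (adjusted p = 0.138), and with only these groups in the fit its adjusted p was 0.0613. A call for pre-col LEC was gained on leaving out its replicate 1 (0.38, adjusted p = 0.0439) or BEC replicate 2 (0.38, adjusted p = 0.0387) and in the fit with a replicate block (0.30, adjusted p = 0.0287). Col minus cap LEC was 0.09 ± 0.10 (interval -0.14 to 0.31, adjusted p = 0.8), and the LEC means of 10.50 to 10.66 lay within their spread.

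**Figure D4:**
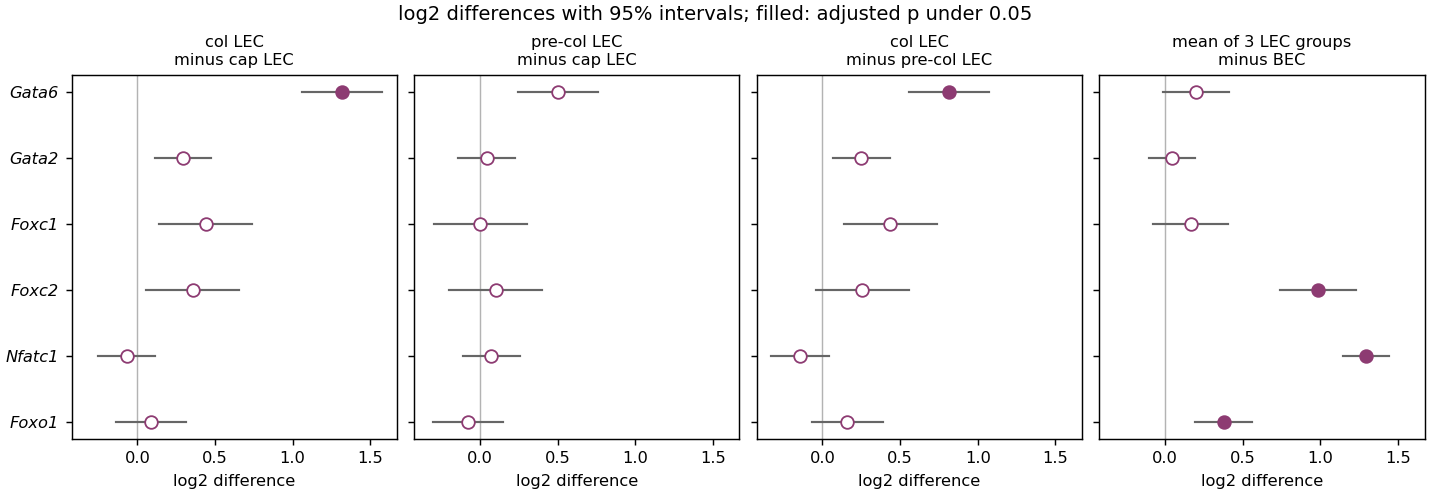
Log2 differences of the 6 genes in 4 comparisons, with 95% intervals, filled where limma's adjusted p is under 0.05. Gata6 is filled in both comparisons of col LEC with other LEC (1.32 and 0.82), and Nfatc1, Foxc2 and Foxo1 are filled in LEC minus BEC (1.29, 0.99 and 0.38).

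Counted together, 1 of the 6 factors passed between col and cap LEC, against 1.64% of all genes tested, and 1 between col and pre-col LEC, against 0.3%. With array weights these were 3 of the 6 among 792 genes and 1 among 153, and on leaving out 1 array 1 of the 6 among 180 to 351 genes and 0 to 1 among 24 to 63. None passed between pre-col and cap LEC, where 0% of genes did by limma (0 genes, with 1257 genes and 1 of the 6, Gata6, at an unadjusted p under 0.05). Against BEC, 3 of 6 passed for the mean of the LEC groups, where 22.6% of genes did, 4 for cap LEC (20.7%), 2 for pre-col LEC (15.5%) and 5 for col LEC (16.2%). The 3 BEC arrays are shared by these comparisons. The median log2 difference of the 6 in col minus cap LEC was 0.33, against 0.03 over all genes tested. For pre-col LEC against the midpoint of cap and col LEC no member of the 6 passed, where 1 gene (0.00508%) did. The 6 differences ran from -0.22 for Foxc1 (interval -0.475 to 0.041) to 0.11 for Nfatc1. A missing call does not place a gene at the midpoint. Foxc1 means were 8.35 in cap, 8.35 in pre-col and 8.79 in col LEC.

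The genes whose values tracked each factor most closely over the 12 arrays are given as a description, since r over 12 arrays of 4 groups mainly follows the group means. For Gata6 they were Thbs4, a secreted matrix glycoprotein (r = 0.946), the mucin-like Parm1 (0.941) and the protocadherin Pcdh7 (0.928), and over the 9 LEC arrays alone the values were 0.966, 0.973 and 0.942. For Gata2 they were the B-cell receptor component Cd79a (0.895), Pcdh7 (0.892) and the zinc finger gene Zfp697 (0.891). Foxc1 had the Mediator subunit gene Med11 (0.899), the RNA exosome gene Exosc3 (0.879) and D10Wsu102e (0.868). For Foxc2 they were the growth factor gene Pdgfa (0.976), the heparan sulfate enzyme gene Hs3st1 (0.975) and Ltbp3, which binds latent TGF-beta (0.973). Several of these signals were weak. Group means lay below the 95th percentile of the negative controls for Thbs4 (6.94 to 7.48), Pcdh7 (6.71 to 8.39), Cd79a (6.80 to 7.30) and Zfp697 (7.07 to 7.32). Those of Med11, Exosc3, D10Wsu102e and Pdgfa lay below it too.

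Nfatc1 was most like the zinc finger gene Zfp521 (0.994), Pdpn (0.991), which encodes the sort marker podoplanin, and the lipopolysaccharide-binding protein gene Lbp (0.991). Within the 9 LEC arrays these fell to 0.74, 0.579 and 0.564. Foxo1 was most like Smtn (0.955) and Zyx (0.952), which encode actin-associated proteins, and the translation factor gene Eif1ax (0.95). Among the 6 themselves, the highest r over the 9 LEC arrays was 0.871 for Gata2 with Gata6, and the lowest was -0.578 for Foxc1 with Nfatc1. Over all 12 arrays Foxc2 with Nfatc1 gave 0.906, which fell to 0.159 within LEC.

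The genes that turn NFAT on and off were read from the same fit. Of 16 tested calcineurin and NFAT genes, 1 was higher and 0 lower in col than cap LEC (0.651% and 0.986% of all genes), with a median difference of 0.03, the same as over all genes. That gene was Ppp3ca, which encodes a catalytic subunit of calcineurin. Its values were 10.87, 11.13 and 10.92 in cap LEC and 11.55, 11.42 and 11.47 in col LEC, a difference of 0.51 ± 0.09 (limma adjusted p = 0.0106). It lost its call on leaving out col LEC replicate 1 (adjusted p = 0.0559) or cap LEC replicate 1 or 3 (0.052 and 0.0542), and without pre-col LEC replicate 1 the list had 2 called genes. The other was Homer3, named here after its values were seen, which with all arrays was at -0.47 ± 0.11 (limma adjusted p = 0.0602). Genes of further catalytic subunits gave no call, with Ppp3cb at -0.04 ± 0.12 (limma adjusted p = 0.926) and Ppp3cc at -0.24 ± 0.12 (adjusted p = 0.521).

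In LEC minus BEC, 5 of these 16 were higher and 3 lower (12% and 10.6% of all genes). Nfat5, the tonicity-responsive relative, was higher by 1.19 ± 0.11 (limma adjusted p = 4.11e-06), and Homer3, a scaffold that can compete with calcineurin for NFAT, by 0.77 ± 0.09 (adjusted p = 4.22e-05). Nfatc2, a calcineurin-regulated relative of Nfatc1, was higher by 0.75 ± 0.10 (adjusted p = 9.04e-05) and Ppp3ca by 0.46 ± 0.07 (adjusted p = 0.000367). The Nfatc2 values of 8.52 to 8.82 in LEC and 7.60 to 8.14 in BEC did not overlap, but all lay below the 95th percentile of the negative controls. The 3 lower genes were Rcan2 (-0.81 ± 0.13, limma adjusted p = 0.000606), Nfatc4 (-0.33 ± 0.09, adjusted p = 0.0178) and Ppp3cc (-0.33 ± 0.10, adjusted p = 0.0256). These 3 likewise stayed below that percentile on all 12 arrays, and Homer3 exceeded it on 6.

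FOXO regulators and targets were next. None of 12 tested FOXO and AKT genes passed between col and cap LEC (limma, with 3 at an unadjusted p under 0.05, a level reached by 10.5% of all genes). The FOXO relative Foxo4 was at -0.34 ± 0.11 (adjusted p = 0.204) and the kinase gene Sgk1 at 0.27 ± 0.11 (adjusted p = 0.384). In LEC minus BEC 1 was higher and 3 lower (12% and 10.6% of all genes). Pik3cb, a catalytic subunit of PI3 kinase, was lower (-1.02 ± 0.10, adjusted p = 6.2e-06), as were the insulin receptor substrate gene Irs2 (-0.55 ± 0.11, adjusted p = 0.00393) and the PI3 kinase regulatory gene Pik3r1 (-0.39 ± 0.10, adjusted p = 0.0159). The relative Foxo3 was higher by 0.23 ± 0.07 (adjusted p = 0.0372). Foxo3 and Foxo4 lay below the 95th percentile of the negative controls on all 12 arrays, and Pik3cb exceeded it on 1 and Irs2 on 2. Pik3r1 lost its call without BEC replicate 1 or 2 (adjusted p = 0.0865 and 0.0611), and Foxo3 in 8 of 12 fits that left out 1 array (highest adjusted p = 0.18, at 0.14, on leaving out BEC replicate 2), while cyclic loess gave 0.16 (adjusted p = 0.186).

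Of 16 genes listed as FOXO targets, none passed between col and cap LEC by limma (5 at an unadjusted p under 0.05, against 10.5% of all genes). The transcription cofactor gene Cited2 was at 0.43 ± 0.11 (adjusted p = 0.0799) and the cell death gene Bcl2l11 at 0.39 ± 0.10 (adjusted p = 0.0801). The largest difference of the list was that of Sesn3, a stress-response gene singled out after its values were seen, at 7.05, 8.71 and 9.03 on the cap arrays and 10.02, 9.91 and 9.79 on the col arrays (1.65 ± 0.41, adjusted p = 0.0801), where cap LEC replicate 1 was the lowest by far. Cited2 and Bcl2l11 passed with array weights (adjusted p = 0.0203 and 0.024). Cited2 also passed without BEC replicate 2 (0.0471) and with only these groups in the fit (0.0411), and Bcl2l11 without cap LEC replicate 1 (0.0491). In LEC minus BEC 6 were higher and 2 lower, beside 12% and 10.6% of all genes. The stress-response gene Sesn1 was higher by 1.27 ± 0.15 (adjusted p = 4.12e-05), Angpt2, a ligand of the TIE2 receptor, by 0.83 ± 0.10 (adjusted p = 3.73e-05) and the cell cycle inhibitor gene Cdkn1b by 0.80 ± 0.12 (adjusted p = 0.000375), while Cited2 was lower (-1.19 ± 0.09, adjusted p = 6.61e-07). The other lower gene was Pdk4, named here after its values were seen (-1.30 ± 0.20, limma adjusted p = 0.000399). Bcl2l11, Cdkn1b and Pdk4 lay below the 95th percentile of the negative controls on all 12 arrays.

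Of 9 tested GATA partners and relatives, none passed between col and cap LEC (limma, 1 at an unadjusted p under 0.05, against 10.5% of all genes). That one was Lmo2, a bridging protein of GATA complexes, at -0.20 ± 0.07 (adjusted p = 0.321), and Gata5 was at 0.09 ± 0.08 (adjusted p = 0.715). Against BEC, 4 were higher and 1 lower in LEC (12% and 10.6% of all genes). The FOG cofactors, which bind GATA factors directly, went opposite ways. Zfpm2 was at 10.05, 10.01 and 10.14 on cap, 9.72, 10.24 and 10.18 on pre-col, 9.95, 10.10 and 9.98 on col LEC arrays and 8.44, 7.77 and 7.82 on BEC arrays, higher in LEC by 2.03 ± 0.14 (adjusted p = 4.28e-07), with the BEC values below the 95th percentile of the negative controls. Zfpm1 was lower in LEC (-0.89 ± 0.15, adjusted p = 0.000811). Lyl1 (0.81 ± 0.12, adjusted p = 0.000405) and Lmo2 (0.67 ± 0.06, adjusted p = 4.02e-06), members of GATA-binding complexes in blood and endothelium, were higher. Zfpm1 exceeded that percentile on 3 of 12 arrays, Lyl1 on 4 and Lmo2 on 2.

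The other forkhead genes gave little between LEC groups. None of 11 tested passed between col and cap LEC (limma, 1 at an unadjusted p under 0.05, against 10.5% of all genes). Foxk1 was at -0.23 ± 0.10 (adjusted p = 0.444) and Foxk2 at -0.15 ± 0.08 (adjusted p = 0.543). In LEC minus BEC 1 was higher and 2 lower (12% and 10.6% of all genes). Foxn3 was higher by 0.35 ± 0.07 (adjusted p = 0.00335). Foxs1, a forkhead gene of pericytes, was lower (-0.84 ± 0.10, adjusted p = 6.61e-05), and so was Foxf1 (-0.26 ± 0.06, adjusted p = 0.0103). Both lay below the 95th percentile of the negative controls on all 12 arrays, so their signals were weak. Of the 13 mural markers, 12 were also lower in LEC than in BEC, and the part of mural RNA in these differences was not tested. Foxf1 lost its call without BEC replicate 3 (-0.20, adjusted p = 0.0508) and Foxn3 under cyclic loess (0.24, adjusted p = 0.0661).

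The structural and signalling genes of valves were set beside the factors. Of 34 tested, 3 were higher and 0 lower in col than cap LEC, where 0.651% and 0.986% of all genes were, with a median of 0.06 against 0.03 over all genes. An unadjusted p under 0.05 was reached by 13, and by 10.5% of all genes. Cldn11, a tight junction gene, was at 9.29, 9.28 and 9.07 on cap, 9.76, 10.41 and 10.08 on pre-col, 10.83, 10.87 and 10.71 on col LEC arrays and 8.48, 8.52 and 8.44 on BEC arrays. Like Gata6 it rose over the LEC gates, by 1.59 ± 0.14 from cap to col (limma adjusted p = 0.000109), but unlike Gata6 it was lowest in BEC. Adm, the peptide adrenomedullin, rose by 1.79 ± 0.16 from cap to col LEC (adjusted p = 0.000127), and Neo1, a netrin and BMP co-receptor, by 1.15 ± 0.14 (adjusted p = 0.000897). Neo1 exceeded the 95th percentile of the negative controls on 6 of 12 arrays and Cldn11 on 8.

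Several genes tied to FOXC2 and NFATC1 in valves did not pass between col and cap LEC; they were singled out here after their values were seen. The gap junction genes Gja4 and Gja1 were at -0.17 ± 0.10 (limma adjusted p = 0.619) and 0.27 ± 0.14 (adjusted p = 0.562), the fibronectin gene Fn1 at 0.33 ± 0.11 (adjusted p = 0.247) and its valve receptor Itga9 at -0.11 ± 0.11 (adjusted p = 0.751). The flow-responsive factor Klf2 was at 0.06 ± 0.14 (adjusted p = 0.904). Among all list genes that did not pass, the largest differences were those of Tek, Dlc1 and Lama5, also singled out afterwards. They were at 0.52 ± 0.15, -0.49 ± 0.11 and 0.48 ± 0.13 (limma adjusted p = 0.138, 0.0534 and 0.101). In LEC minus BEC 16 of the 34 were higher and 11 lower, against 12% and 10.6% of all genes, with a median of 0.21 against -0.02 over all genes. The guidance gene Sema3a was higher by 3.18 ± 0.12 (adjusted p = 2.29e-09), from BEC values of 6.29 to 6.87 that lay below the 95th percentile of the negative controls. Also higher were Cd24a by 2.06 ± 0.07 (adjusted p = 1.18e-09), the planar polarity gene Celsr1 by 2.05 ± 0.10 (adjusted p = 2.29e-08) and Itga9 by 1.50 ± 0.09 (adjusted p = 7.25e-08). Among the 11 lower genes the smallest p belonged to Lama5, Dlc1 and Fat4, named here after their values were seen. They were at -1.69 ± 0.10 (limma adjusted p = 1.27e-07), -1.35 ± 0.09 (adjusted p = 2.85e-07) and -1.095 ± 0.075 (adjusted p = 3.65e-07). Lama5 and Dlc1 each exceeded the 95th percentile of the negative controls on 3 of 12 arrays.

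**Figure D5:**
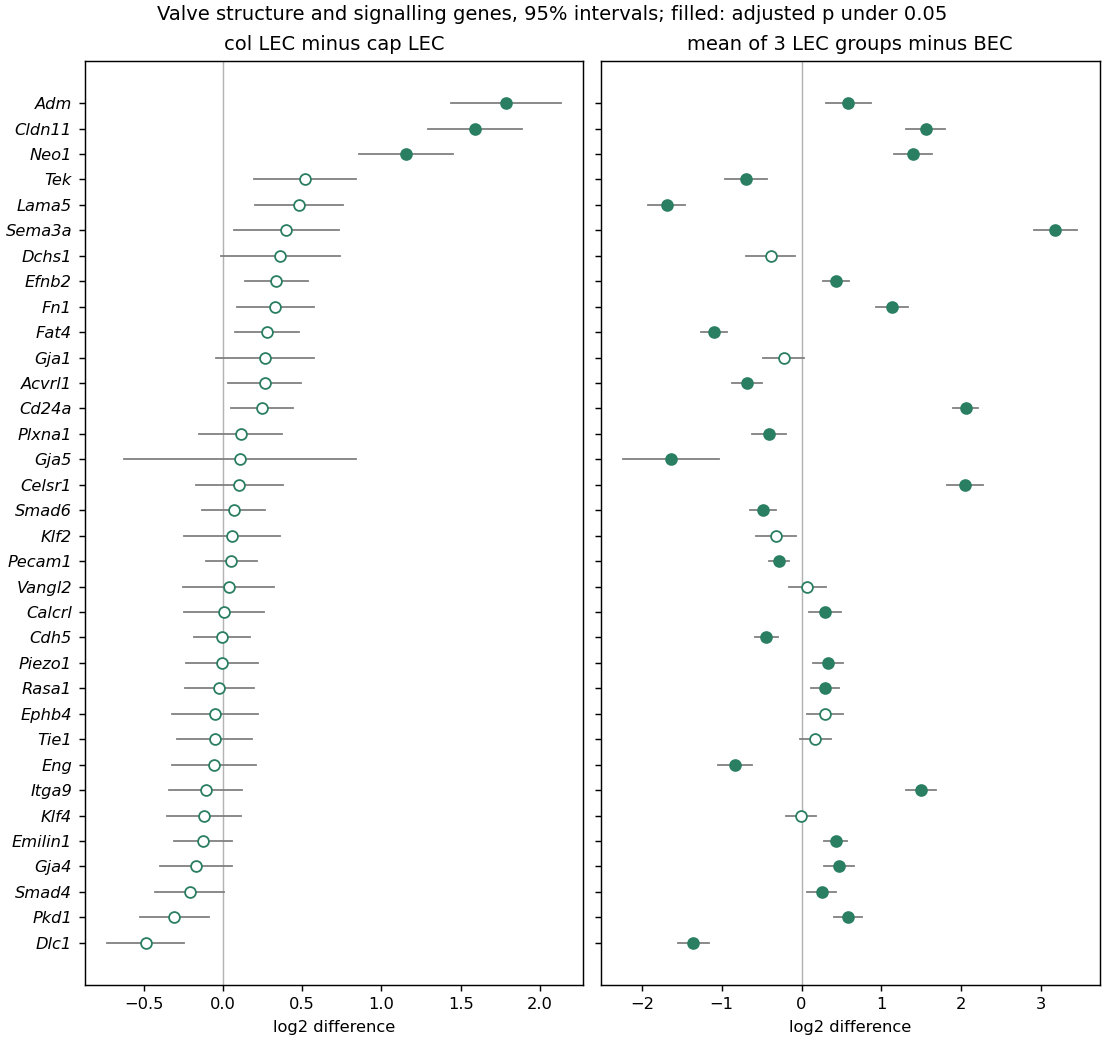
Log2 differences with 95% intervals of 34 valve structure and signalling genes in col LEC minus cap LEC (left) and in the mean of 3 LEC groups minus BEC (right), in the order of the left panel and filled where limma's adjusted p is under 0.05. On the left only Adm, Cldn11 and Neo1 are filled, and on the right 27 of 34 are, 16 higher and 11 lower in LEC.

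Neighbouring genes were read from the same fit, since both FOXC genes lie beside other forkhead genes. In the gene order of GRCm38.p6 the 6 factors have 24 protein-coding neighbours (2 on each side), of which 20 were tested. Between col and cap LEC the lowest limma adjusted p among the 20 was 0.0758 (Atp9b, -0.54). In LEC minus BEC 3 of the 20 were higher and 3 lower, where 12% and 10.6% of all genes were. Beside Foxc2 (0.99 in LEC minus BEC), Foxf1 was lower as given above, and Mthfsd at 0.05 (limma adjusted p = 0.646) and Foxl1 at 0.10 (adjusted p = 0.559) gave no call. Beside Foxc1 (0.17, no call), Gmds, an enzyme of GDP-fucose synthesis, was higher by 0.56 (adjusted p = 0.0204), Foxq1 was at -0.17 (adjusted p = 0.189), and Foxf2 was too dim to be tested. Beside Foxo1 (0.38), Cog6, of a Golgi tethering complex, was higher by 0.31 (adjusted p = 0.0118) and Lhfp by 0.26 (adjusted p = 0.0253), differences near that of Foxo1 itself, while Maml3, a Notch coactivator, was lower (-0.31, adjusted p = 0.0285). Beside Nfatc1 (1.29), the potassium channel gene Kcng2 was lower (-0.22, adjusted p = 0.0369), and Atp9b was at 0.19 (adjusted p = 0.241). The tested neighbours of Gata6, which were Abhd3, Mib1 and Cables1, were at 0.06, 0.11 and -0.03 between col and cap LEC (adjusted p = 0.883, 0.776 and 0.957), beside 1.32 for Gata6, and those of Gata2 gave no call in either comparison.

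Promoter sequence from RefSeq (GRCm38.p6, 300 bases around a start) was matched for Foxc1, Foxo1 and both starts of Gata2, 4 sequences for 3 genes, and those of Foxo1 and Foxc1 are shown because the letters sought occurred in them. Letters of 3 kinds were searched on both strands, standing for sites of the factors themselves: GGAAAA for NFAT, AGATAA for GATA and TGTTTAC for forkhead factors. The capitals mark GGAAAA or its reverse complement TTTTCC. The Foxo1 sequence lies at chr3:52268087-52268386 and that of Foxc1 at chr13:31806396-31806695, both on the plus strand.
Foxo1: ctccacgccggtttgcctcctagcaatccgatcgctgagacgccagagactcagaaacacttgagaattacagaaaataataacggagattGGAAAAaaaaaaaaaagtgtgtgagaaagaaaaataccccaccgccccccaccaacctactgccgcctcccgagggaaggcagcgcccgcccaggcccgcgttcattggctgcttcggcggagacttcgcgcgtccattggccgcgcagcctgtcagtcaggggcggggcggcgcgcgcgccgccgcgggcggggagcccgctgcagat
Foxc1: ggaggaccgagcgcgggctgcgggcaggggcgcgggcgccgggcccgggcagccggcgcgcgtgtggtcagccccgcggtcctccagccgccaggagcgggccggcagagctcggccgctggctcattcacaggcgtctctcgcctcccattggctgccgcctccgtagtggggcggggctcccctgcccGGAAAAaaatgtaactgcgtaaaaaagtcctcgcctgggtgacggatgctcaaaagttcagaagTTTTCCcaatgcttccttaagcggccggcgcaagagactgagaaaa

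The NFAT letters occurred at 1 place in the Foxo1 promoter and at 2 places in that of Foxc1, in 2 of 4 member promoters against 23.4% of 32851 promoters of this length. AGATAA was in 0 of 4 (11.2% of all) and TGTTTAC in 0 of 4 (3.65% of all). No match overlapped another of the letters searched. Foxc2, Gata6 and Nfatc1 had no promoter sequence here to search. A match is a description of this window and does not show binding. In LEC minus BEC, beside 1.29 for Nfatc1, Foxo1 was at 0.38 and Foxc1, which gave no call, at 0.17 ± 0.11 (limma adjusted p = 0.32). Regulation of Foxo1 or Foxc1 by NFATC1 was not tested.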

How the data were processed

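Endothelial RNA of 4 sorted groups (500 pg per sample, amplified as sense-strand cDNA per the labels' protocols) was measured on Affymetrix whole-transcript arrays. The deposited values are log2 values per transcript cluster after RMA, per the submitters' processing notes; their software and annotation are not named in those notes. That they are on a log2 scale follows from their range.

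The table had 72688 rows. Rows naming 1 gene (31216) were used, with symbols updated through Entrez IDs (RefSeq, GRCm38.p6, names and gene order only), the brightest row stood for a gene, and rows naming several genes (1534) were left out. Genes above an array's median on at least 3 arrays were tested (19675). Group means of all 12 arrays were fitted with limma 3.58.1 (lmFit, eBayes, R 4.3.3; prior and residual degrees of freedom 3.63 and 8), with Benjamini-Hochberg adjustment over all genes tested and a call at adjusted p under 0.05, two-sided. Errors of differences are moderated standard errors and errors of levels are SDs. Within-array differences of relatives were compared by exact permutation. The code was tested on simulated data. The number of arrays limits the precision.

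The members and gene lists were chosen with earlier results of these data known. Named list genes were up to 4 called members with the smallest p, or 2 where none was called, in col LEC minus cap LEC and LEC minus BEC; the genes most like a member were the 3 with the highest Pearson r over 12 arrays, leaving out predicted genes, small RNAs and receptor segments. Other marker lists (keratinocyte, immune, Schwann, adipocyte, muscle) had 0 genes called between col and cap LEC, where 1.64% of all genes were. Alternatives were filters, cyclic loess, array weights, an intensity trend, mean rows, only the groups compared, a replicate block and leaving out each array. Python 3.11.15, pandas 2.3.3 and matplotlib 3.10.9 were used.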

Additional observations from a re-analysis of the deposited data

How the results depend on the processing

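The call of Gata6 between col and cap LEC, and those of Foxc2, Nfatc1 and Foxo1 in LEC minus BEC, held under all 20 alternatives. Gata6 between col and pre-col LEC did not pass with only these groups fitted (0.82, adjusted p = 0.0674; 5 genes and 0 members called) or in 5 of 12 fits that left out 1 array (0.76 to 0.88 over the 12, with 0 to 1 member called and 24 to 63 genes). Sample numbers were shared by groups in the labels. Same-numbered arrays of different groups deviated together more (median r 0.0915, from -0.093 to 0.208, over 0.1 in 7 of 18 pairs). Differently numbered arrays had a median r of -0.0345, with 2 of 36 pairs over 0.1. The labels do not say what same-numbered samples shared. The main fit and the permutations took arrays as independent, so their p-values do not allow for such sharing. With a replicate block, 374 genes were called between col and cap LEC, 3 between pre-col and cap LEC and 2 in the midpoint contrast; among the 6 it changed the Foxo1 call between pre-col LEC and BEC and no other. Array weights called 792 genes and 3 members between col and cap LEC, 28 between pre-col and cap LEC, 153 between col and pre-col LEC and 2 at the midpoint. Cyclic loess called 14 genes between pre-col and cap LEC and 2 at the midpoint, an intensity trend 1 and 2, the stricter filter 2 at the midpoint, and the groups compared alone 0 there, with 2 members for cap LEC minus BEC. Leaving out 1 array gave 180 to 351 genes between col and cap LEC, 0 to 1 between pre-col and cap LEC, 0 to 2 at the midpoint and 2 to 4 members for cap LEC minus BEC. The causes were not tested.

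Differences near 0 changed sign without a call: under cyclic loess Foxo1 in pre-col minus cap LEC (0.002), Gata2 in LEC minus BEC (-0.07) and Foxc1 in cap LEC minus BEC (-0.07) and pre-col LEC minus BEC (-0.019). Foxc1 in cap LEC minus BEC was at -0.028 with array weights. On leaving out 1 array, differences ran in pre-col minus cap LEC from -0.085 to 0.106 for Foxc1, -0.006 to 0.087 for Gata2 and -0.14 to 0.001 for Foxo1. In cap LEC minus BEC Foxc1 ran from -0.086 to 0.132, and in pre-col LEC minus BEC Foxc1 ran from -0.07 to 0.135, Gata2 from -0.073 to 0.016 and Gata6 from -0.025 to 0.182. The Foxc2 to Foxc1 shift was -0.082 where col and cap arrays replaced LEC and BEC, a different question.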
